A study of Mus musculus with 32 samples.

Results

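The mitochondrial respiratory chain was represented on this mouse brain cDNA array by 7 probes for 6 nuclear-encoded subunit genes, of 5163 cDNA probes in all. Members were the probes whose title contains cytochrome c oxidase, NADH dehydrogenase, ATP synthase or ubiquinol and does not begin with EST. They were the probe titled cytochrome c oxidase, subunit VI a, polypeptide 1 (Cox6a1, clone AI893442), Cox8a (AI326932), Ndufs4 (AI450138), Ndufa2 (AI326170), a pair of probes for Ndufv1 (AI662243 and AI451384, which share a cluster in the array's annotation) and Atp5pb (AI327309). Symbols were assigned from the titles, since the files pair no title with a symbol. A filter on dim probes kept 6 of the 7 probes (5 genes), and Atp5pb fell below it. Counts of members below are counts of these probes. No member carried a title for a subunit of complex II or III. Another 5 probes whose EST titles hold the same phrases were kept apart and are described after the members.

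The tissue was prefrontal cortex of adult mice from lines bred out of the heterogeneous HS/Ibg stock for opposite severity of ethanol withdrawal, seizure-prone (WSP) and seizure-resistant (WSR), each direction in 2 independent selection replicates (WSP-1 and WSP-2, WSR-1 and WSR-2). EtOH mice breathed ethanol vapor for 72 h after a priming injection, which was 1.5 g/kg in WSP-1, WSR-1 and WSR-2 and a higher dose in WSP-2, and Air mice were kept in air chambers without ethanol. All mice, Air controls included, received daily pyrazole, an alcohol dehydrogenase inhibitor, at 68.1 mg/kg, and were sampled at 0 h of withdrawal. The 8 groups were female WSP EtOH, female WSP Air, female WSR EtOH, female WSR Air, male WSP EtOH, male WSP Air, male WSR EtOH and male WSR Air, with 4 arrays each (2 selection replicates with 2 pools), and each array carried RNA pooled from 2 mice. The submitters excluded 1 female WSR EtOH array (2-1, selection replicate 2, pool 1), so 31 arrays were described. Only 2 independently bred lines stand on each side of a line comparison.

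The respiratory chain passes electrons from NADH (complex I) and succinate (complex II) through ubiquinol and cytochrome c (complex III) to oxygen (complex IV), pumps protons across the inner mitochondrial membrane, and drives ATP synthase (complex V) with the gradient. Neurons depend heavily on it, because ion pumping and synaptic transmission consume much ATP. Most of its subunits are encoded in the nucleus, and the catalytic cores of complexes I and IV also hold subunits encoded in mitochondrial DNA, none of which is a member here.

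Array quality differed between the sexes, and this touches every sex comparison below. The array-wide background reading ran from 430 to 769 intensity units on the 7 female WSR arrays, from 88.4 to 283 on the 4 pool 1 arrays of female WSP, from 10.3 to 66.8 on the 4 pool 2 arrays of female WSP, and from 8.25 to 41.1 on the 16 male arrays. Median signal differed along with the reading. It ran from 345 to 610 on female WSR arrays and from 88.1 to 239 on pool 1 of female WSP. On pool 2 of female WSP it ran from 12.3 to 77.7, and on male arrays from 8.86 to 42.7. Readings above 75 are called high here, which takes in 11 of 15 female arrays and no male array. This cut is on the raw reading and takes no account of the signal of the array. The share of probes whose signal exceeded the background reading, called above background, ran from 15.8% to 49.3% on the high-background arrays and from 40.9% to 82.5% on the others. Within female WSP, high and low readings fell on both treatments equally. Eif2s3y, a Y-linked gene, was above background on 6 of 15 female and 14 of 16 male arrays and differed by -0.42 ± 0.19 log2 (SE, limma adjusted p = 0.0967), so the sex labels could not be checked on it and were taken as given. The neuronal markers synaptotagmin 4, Thy1 and synapsin I were above background on 29, 18 and 12 of 31 arrays, and the astrocyte marker glutamine synthetase and the choroid plexus transcript transthyretin on 31 of 31.

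The proximal promoters of Cox6a1, Cox8a and Ndufs4, the members on which the results turn, are printed 5′ to 3′ from RefSeq (GRCm38.p6), from 250 bases before the start of the gene to 50 after it. Capitals mark matches on either strand to TGCGCA (part of the core of NRF1 sites), CCGGAAG (an ETS core, of the kind GABP binds) and AAGATGG (a YY1 core). NRF1, GABP and YY1 are transcription factors known for activating many nuclear respiratory chain genes.
Cox6a1, chr5:115348909-115349208, minus strand: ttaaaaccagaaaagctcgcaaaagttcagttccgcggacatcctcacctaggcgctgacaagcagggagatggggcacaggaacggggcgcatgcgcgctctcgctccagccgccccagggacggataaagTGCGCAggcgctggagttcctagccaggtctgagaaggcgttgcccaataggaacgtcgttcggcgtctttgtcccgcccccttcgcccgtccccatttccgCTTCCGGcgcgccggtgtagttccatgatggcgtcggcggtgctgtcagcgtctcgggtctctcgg
Cox8a, chr19:7217567-7217866, minus strand: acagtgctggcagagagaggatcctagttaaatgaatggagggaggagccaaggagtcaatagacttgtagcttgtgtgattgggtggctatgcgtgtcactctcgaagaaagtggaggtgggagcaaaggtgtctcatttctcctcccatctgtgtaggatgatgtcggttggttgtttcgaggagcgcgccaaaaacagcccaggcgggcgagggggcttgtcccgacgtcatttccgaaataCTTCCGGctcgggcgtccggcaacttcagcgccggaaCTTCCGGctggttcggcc
Ndufs4, chr13:114388045-114388344, minus strand: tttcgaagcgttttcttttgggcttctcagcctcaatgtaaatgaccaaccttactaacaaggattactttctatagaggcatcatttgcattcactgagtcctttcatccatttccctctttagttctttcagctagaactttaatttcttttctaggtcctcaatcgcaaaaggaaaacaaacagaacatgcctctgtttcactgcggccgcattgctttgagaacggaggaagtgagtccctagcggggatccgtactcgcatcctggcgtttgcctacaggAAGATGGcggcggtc
Cox6a1 held 1 TGCGCA and 1 CCGGAAG match, Cox8a held 2 CCGGAAG matches, and Ndufs4 held 1 AAGATGG match just after its start. No match overlapped another. Of 32851 promoters of this length in the table, 7.76% held TGCGCA, 8.86% held CCGGAAG and 6.34% held AAGATGG. The Atp5pb promoter held 1 TGCGCA and 1 AAGATGG match, and the Ndufv1 promoter held none of the 3 motifs. A match is a description of letters only, since no binding was measured here. Sites can also differ from these letters, so an unmarked stretch is not shown to lack a site.

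Levels are given as normalised log2 signal, and array names give selection replicate and pool, so that 1-2 is pool 2 of selection replicate 1. Levels of different probes were not compared as amounts of transcript. Cox6a1, the broadly expressed isoform of a small subunit of complex IV, which reduces oxygen to water, was above background on 21 of 31 arrays. It averaged 4.90 ± 0.76 (SD, n = 31) and lay at the 71.8th percentile of all probe means, a rank of signal and not of transcript amount. In female WSP EtOH it measured 4.15, 5.63, 3.16 and 5.60 on arrays 1-1, 1-2, 2-1 and 2-2, against 4.48, 5.23, 5.08 and 4.99 in female WSP Air. The 2 low EtOH values came from pool 1 arrays of high background and were not above background, and the 2 pool 2 arrays were higher than every Air array. In female WSR EtOH it measured 6.67, 3.17 and 3.65 on arrays 1-1, 1-2 and 2-2, against 5.83, 5.10, 4.87 and 5.37 in female WSR Air. Array 1-1 held the highest Cox6a1 value of all 31, while the other two EtOH arrays lay below every Air array and were not above background. In male WSP EtOH it measured 5.50, 5.35, 4.92 and 3.91, against 4.69, 5.18, 5.31 and 5.16 in male WSP Air. In male WSR EtOH it measured 3.89, 4.85, 4.61 and 5.17, against 5.13, 5.45, 5.22 and 4.52 in male WSR Air. EtOH and Air values overlapped in all 4 sex and line groups.

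Cox6a1 varied more among EtOH arrays than among Air arrays. Its SD was 1.01 over 15 EtOH arrays and 0.34 over 16 Air arrays, and the difference in spread was not tested. In females the SD was 1.39 over 7 EtOH and 0.39 over 8 Air arrays, and in males 0.61 and 0.31 over 8 each. The EtOH values ran from 3.16 to 6.67 and the Air values from 4.48 to 5.83. Both EtOH extremes came from female arrays of high background, whose part in the spread was not tested. The 4 Air groups held the 4 highest group means, in the order female WSR Air (5.29), male WSP Air and male WSR Air (both 5.08) and female WSP Air (4.94). Below them came male WSP EtOH (4.92), female WSP EtOH (4.64), male WSR EtOH (4.63) and female WSR EtOH (4.50). Neighbours in this order overlapped throughout, and no gap exceeded 0.29 log2.

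**Figure D1:**
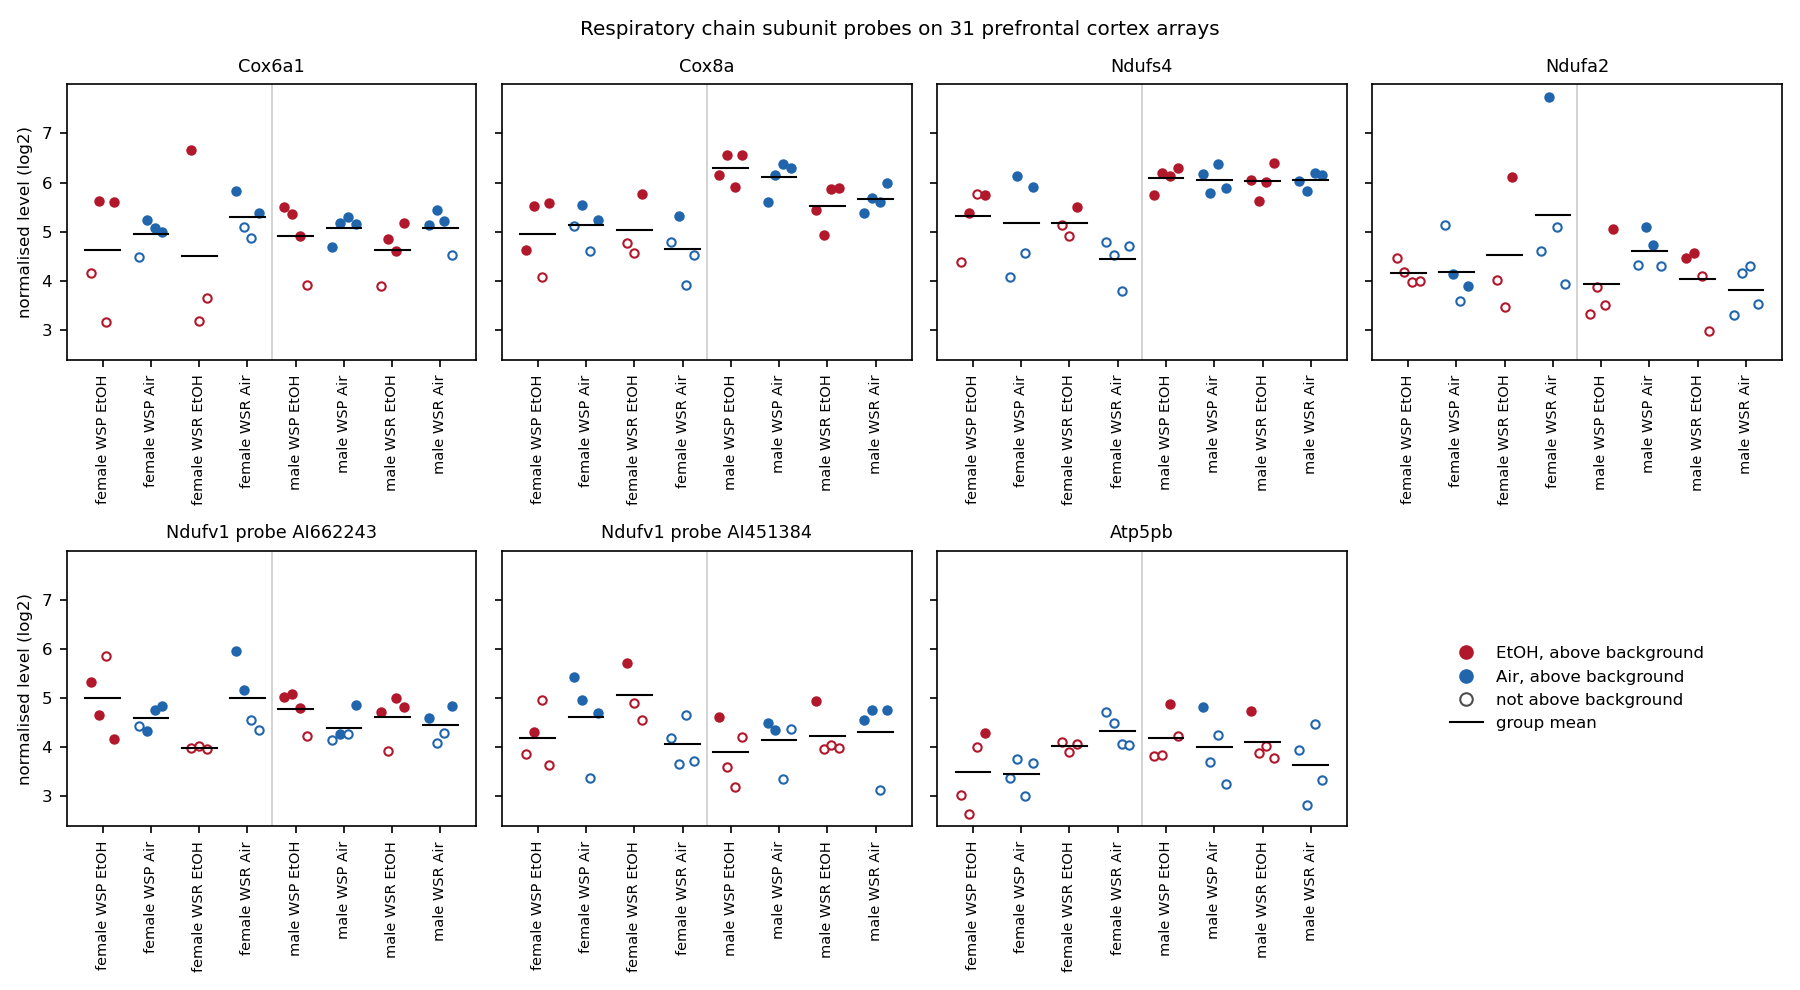
Normalised log2 level (vertical axis) of each of the 7 member probes on 31 arrays, grouped by sex, line and treatment, with red points for EtOH, blue for Air, open points for arrays where the probe was not above background, and black bars for group means. Male Cox8a and Ndufs4 points are filled throughout and lie mostly above the female points, while in each panel EtOH and Air points of most groups overlap.

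Cox8a, the broadly expressed isoform of the smallest nuclear-encoded subunit of complex IV, was above background on all 16 male arrays and on 7 of 15 female arrays. In female WSP EtOH it measured 4.62, 5.52, 4.07 and 5.58, against 5.12, 5.54, 4.61 and 5.24 in female WSP Air. In female WSR EtOH it measured 4.78, 4.57 and 5.78, against 4.79, 5.32, 3.92 and 4.52 in female WSR Air. EtOH and Air overlapped in both female lines, and in female WSP the pool 2 arrays were above the pool 1 arrays of the same treatment. In male WSP EtOH it measured 6.16, 6.56, 5.91 and 6.57, against 5.60, 6.16, 6.39 and 6.30 in male WSP Air. In male WSR EtOH it measured 5.43, 4.92, 5.87 and 5.90, against 5.37, 5.68, 5.60 and 5.99 in male WSR Air. All 4 male groups had higher means than all 4 female groups, in the order male WSP EtOH (6.30), male WSP Air (6.11), male WSR Air (5.66), male WSR EtOH (5.53), female WSP Air (5.13), female WSR EtOH (5.04), female WSP EtOH (4.95) and female WSR Air (4.64), and each neighbouring pair overlapped.

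Ndufs4, an accessory subunit of complex I whose loss in mice causes a fatal encephalopathy resembling Leigh syndrome, was likewise above background on 16 of 16 male and 5 of 15 female arrays. In female WSP EtOH it measured 4.39, 5.39, 5.78 and 5.74, against 4.07, 6.13, 4.56 and 5.92 in female WSP Air. In female WSR EtOH it measured 5.14, 4.91 and 5.50, against 4.78, 4.52, 3.79 and 4.71 in female WSR Air. The female WSR EtOH values lay above every female WSR Air value, but only EtOH array 2-2 was above background and no Air array was. In male WSP EtOH it measured 5.74, 6.19, 6.13 and 6.29, against 6.17, 5.78, 6.38 and 5.90 in male WSP Air. In male WSR EtOH it measured 6.05, 5.63, 6.02 and 6.40, against 6.03, 5.82, 6.20 and 6.15 in male WSR Air. The 4 male group means lay within 6.02 to 6.09, and the 4 female means were 5.32 (WSP EtOH), 5.18 (WSR EtOH), 5.17 (WSP Air) and 4.45 (WSR Air). Neighbouring groups in this order overlapped.

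The other members were measured on fewer arrays. Ndufa2, an accessory subunit in the matrix arm of complex I, was above background on 9 of 31 arrays and ranged from 2.97 to 7.74. Its highest values, 7.74 on female WSR Air 1-2 and 6.12 on female WSR EtOH 2-2, came from high-background arrays. Ndufv1, the core subunit of complex I that binds FMN and accepts electrons from NADH, was above background on 18 arrays by probe AI662243 (range 3.92 to 5.95) and on 12 by probe AI451384 (range 3.12 to 5.72). Its 2 probes did not track each other, with a Pearson r of -0.12 over 31 arrays and 0.14 after group means were removed, given as a description without a test. Atp5pb, subunit b in the peripheral stalk of ATP synthase, was above background on only 4 arrays, 1 female and 3 male, and ranged from 2.64 to 4.87. It was not tested.

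The first comparison asked what 72 h of ethanol vapor did to these genes in each sex and line. None of the 6 members tested passed the threshold (limma, Benjamini-Hochberg adjusted p under 0.05 over 3872 probes) in female WSP, female WSR, male WSP or male WSR. Over all probes the share past it was 0% in female WSP, male WSP and male WSR and 0.232% in female WSR, so there was little background of calls to read this against. At an unadjusted p under 0.05 there were 0 members in female WSP, 2 in female WSR, 0 in male WSP and 0 in male WSR. Averaged over the 4 sex and line groups, again 0 of 6 passed, 0 had an unadjusted p under 0.05, and 0% of all probes passed. The 6 members divided evenly, 3 higher and 3 lower with EtOH, with a median difference of 0.03 log2 beside 0.01 over all probes tested.

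Cox6a1 had the smallest p of the members in that average. It measured 4.68 ± 1.01 on EtOH arrays and 5.10 ± 0.34 on Air arrays (SD, n = 15 and 16), a fitted difference of -0.43 ± 0.28 log2 (SE) with a 95% interval from -1.01 to 0.15 (limma adjusted p = 0.858). It was negative in all 4 sex and line groups, at -0.31 ± 0.55 in female WSP, -0.80 ± 0.60 in female WSR, -0.16 ± 0.55 in male WSP and -0.45 ± 0.55 in male WSR, none past the threshold. On the low-background pool 2 arrays of female WSP alone the direction turned, and Cox6a1 differed by 0.51 ± 0.45 (2 EtOH against 2 Air arrays, adjusted p = 0.86). In the authors' deposited table, which has no value where the probe was not above background, the male WSP difference was also positive. It was 0.10 ± 0.19 in that table's own units, which differ from the log2 levels here (SE, limma on male arrays, adjusted p = 0.994). In female WSR a single array decided the size of the difference. Without EtOH array 1-1, which held the highest value, Cox6a1 passed in female WSR as lower with EtOH (limma adjusted p = 0.0451). In that fit 122 probes passed in all, instead of 9. The Cox6a1 means were 3.31 on 2 EtOH arrays and 5.18 on 4 Air arrays. Neither of these EtOH arrays was above background, and set against the level at which probes came above it there, the difference had no lower bound over 1-fold. The remaining members differed on average by -0.33 ± 0.31 (Ndufa2), 0.07 ± 0.18 (Cox8a), 0.22 ± 0.19 (Ndufs4), -0.01 ± 0.18 (Ndufv1, AI662243) and 0.07 ± 0.23 (Ndufv1, AI451384). Their 95% intervals bound the mean response of Cox8a to between -0.30 and 0.44 log2 and that of Ndufs4 to between -0.16 and 0.61.

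**Figure D2:**
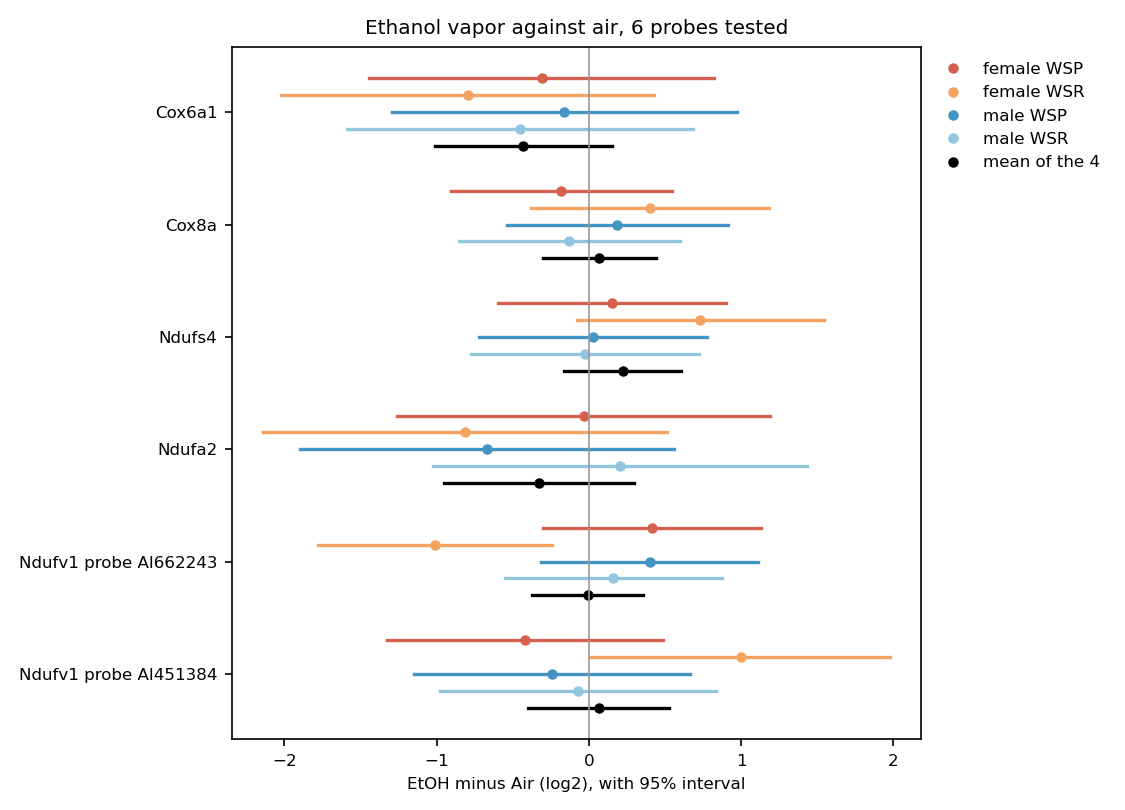
EtOH minus Air difference in log2 (horizontal axis) with its 95% interval from the limma fit, for the 6 probes tested, in female WSP, female WSR, male WSP, male WSR and the mean of the 4. All intervals span 0 except those of the 2 Ndufv1 probes in female WSR, which lie on opposite sides of it and rest on a group with no array above background.

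In female WSR the 2 Ndufv1 probes differed in opposite directions, and neither passed. Probe AI662243 measured 3.99, 4.03 and 3.96 on EtOH arrays, against 5.95, 5.16, 4.55 and 4.35 on Air arrays. The 3 EtOH values lay below all 4 Air values, but none of them was above background, and 2 of the 4 Air values were. The group means were 3.99 and 5.0 (unadjusted p = 0.0121, limma adjusted p = 0.208), and the difference had no lower bound over 1-fold. Probe AI451384 measured 5.72, 4.91 and 4.55 on EtOH arrays, against 4.18, 3.67, 4.67 and 3.73 on Air arrays. Only the first of these 7 values was above background, and the group means were 5.06 and 4.06 (limma adjusted p = 0.333), again with no lower bound over 1-fold. On the remaining groups probe AI662243 measured 5.32, 4.65, 5.87 and 4.18 in female WSP EtOH, against 4.44, 4.33, 4.75 and 4.84 in female WSP Air. In male WSP EtOH it measured 5.03, 5.08, 4.80 and 4.24, against 4.15, 4.27, 4.27 and 4.87 in male WSP Air. In male WSR EtOH it measured 4.72, 3.92, 5.0 and 4.82, against 4.60, 4.08, 4.29 and 4.84 in male WSR Air. EtOH and Air overlapped in each of these 3 groups.

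Whether the response depended on line or sex was tested as the difference of responses. No member passed in either test (0 of 6 each, 0% of all probes past the threshold in limma). For WSP minus WSR, 1 member had an unadjusted p under 0.05, Ndufv1 probe AI662243 at 0.83 ± 0.36 log2 (SE, adjusted p = 0.946), which takes in the female WSR EtOH arrays where it was not above background. For females minus males, 0 members did, and that probe again had the smallest p, at -0.58 ± 0.36 (adjusted p = 0.977). Cox6a1 responses differed by 0.39 ± 0.56 between WSP and WSR and by -0.25 ± 0.56 between females and males.

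The second comparison set WSP against WSR. In female Air arrays 0 of 6 members passed, with 3.31% of all probes past the threshold, and 0 members had an unadjusted p under 0.05. In male Air arrays 0 of 6 passed and 0 had an unadjusted p under 0.05, with 0% of all probes past it. Over sex and treatment 0 of 6 passed, with 1.19% of all probes past it, and 1 member, Cox8a, had an unadjusted p under 0.05. Cox8a measured 5.62 ± 0.74 on WSP and 5.23 ± 0.61 on WSR arrays (SD, n = 16 and 15), a fitted difference of 0.40 ± 0.18 log2 (SE, limma adjusted p = 0.301), with 12 of 16 WSP arrays above the WSR mean. Its difference in Air was 0.49 ± 0.35 in females and 0.45 ± 0.35 in males, neither past the threshold. The mean difference moved with the processing. It was 0.55 ± 0.17 with arrays weighted by quality (adjusted p = 0.034), the only setting tried in which it passed. With those weights 383 probes passed in all, instead of 46. The difference was 0.23 ± 0.17 with cyclic loess (adjusted p = 0.673) and 0.19 ± 0.18 with background class as a term (adjusted p = 0.728). With the background reading as a covariate it was 0.19 ± 0.24 (adjusted p = 0.869).

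Ndufs4 had the smallest p of the members between the lines in female Air arrays, with means of 5.17 on WSP and 4.45 on WSR arrays (limma adjusted p = 0.304). It was above background on 2 of 4 WSP arrays and on no WSR array, and the difference had no lower bound over 1-fold. Its 2 WSP pool 2 arrays (6.13 and 5.92) lay above all 4 WSR arrays, and its 2 WSP pool 1 arrays (4.07 and 4.56) lay within the WSR range of 3.79 to 4.78. The high WSP values were thus those of low background reading, and all 4 WSR readings were high. With array weights it passed (adjusted p = 0.03, with 429 probes past the threshold in all instead of 128), against the same WSR arrays that were not above background. In male Air arrays, all of low background, Ndufs4 differed by 0.01 ± 0.37. Ndufa2 had the smallest p there. It measured 4.32, 5.09, 4.73 and 4.30 in male WSP Air, against 3.30, 4.17, 4.29 and 3.53 in male WSR Air. The groups lay just apart, and the probe was above background on 2 WSP arrays and on no WSR array. Against the level at which probes came above background on the WSR arrays, the male WSP mean was at least 1.04-fold higher (means of 4.61 and 3.82, adjusted p = 1). In female Air it ran the other way, at -1.16 ± 0.60 (adjusted p = 0.317), with 5.14, 4.13, 3.58 and 3.88 in WSP against 4.61, 7.74, 5.09 and 3.93 in WSR. Cox6a1 differed by -0.35 ± 0.55 in female Air, by 0.00 ± 0.55 in male Air and by 0.02 ± 0.28 over sex and treatment.

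The third comparison set females against males, and was the one in which members passed the threshold. In Air arrays 2 of 6 members passed, Cox8a and Ndufs4, both lower in females, where 15.0% of all probes passed and 11.6% passed as lower in females. In EtOH arrays 1 of 6 passed, Cox8a, lower in females, where 9.89% of all probes passed and 8.19% as lower. Over line and treatment Cox8a and Ndufs4 passed again, with 25.8% of all probes past the threshold and 19.2% lower in females. The other 4 members did not pass in any of these contrasts, and their mean differences were -0.08 ± 0.28 (Cox6a1), 0.45 ± 0.31 (Ndufa2), 0.09 ± 0.18 (Ndufv1, AI662243) and 0.34 ± 0.23 (Ndufv1, AI451384, all SE in log2). The sign of 3 of these turned with the processing. Cox6a1 was positive in 6 of 13 other settings, up to 0.88, and at 0.36 ± 0.28 on the low-background WSP arrays. Ndufa2 went as low as -0.38 and Ndufv1 AI662243 as low as -0.36, at -0.23 ± 0.33 and -0.09 ± 0.23 on those arrays.

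Cox8a averaged 4.93 ± 0.56 on female and 5.90 ± 0.45 on male arrays (SD, n = 15 and 16). The fitted difference was -0.96 ± 0.18 log2 (SE, limma adjusted p = 0.00027), and all 15 female arrays lay below the male mean. It was -1.0 ± 0.25 in Air (adjusted p = 0.00753) and -0.92 ± 0.26 in EtOH (adjusted p = 0.0252). Female values ran from 3.92 to 5.78 and male values from 4.92 to 6.57, so the sexes overlapped, with 8 of 15 female arrays below the lowest male array. Ndufs4 averaged 5.02 ± 0.70 on female and 6.05 ± 0.23 on male arrays (SD, n = 15 and 16), a fitted difference of -1.02 ± 0.19 (adjusted p = 0.000211). It was -1.24 ± 0.26 in Air (adjusted p = 0.00191) and -0.80 ± 0.27 in EtOH, where it did not pass (adjusted p = 0.0574). Female Ndufs4 values ran from 3.79 to 6.13 and male values from 5.63 to 6.40, with 11 of 15 female arrays below the lowest male array. The EtOH calls hung on single arrays. Without female WSP EtOH 2-1, female WSR EtOH 1-2, male WSR EtOH 2-1 or male WSR EtOH 2-2 Cox8a did not pass (limma adjusted p from 0.0524 to 0.0742). Without female WSP Air 1-1, 1-2 or 2-1, female WSP EtOH 2-2, female WSR Air 2-1 or female WSR EtOH 2-2 Ndufs4 passed (adjusted p from 0.0317 to 0.0476). When the fit held the EtOH arrays alone, Ndufs4 passed (adjusted p = 0.045) and Cox8a did not (adjusted p = 0.0552). In bulk tissue, fewer cells of a type and less RNA per cell cannot be told apart.

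**Figure D3:**
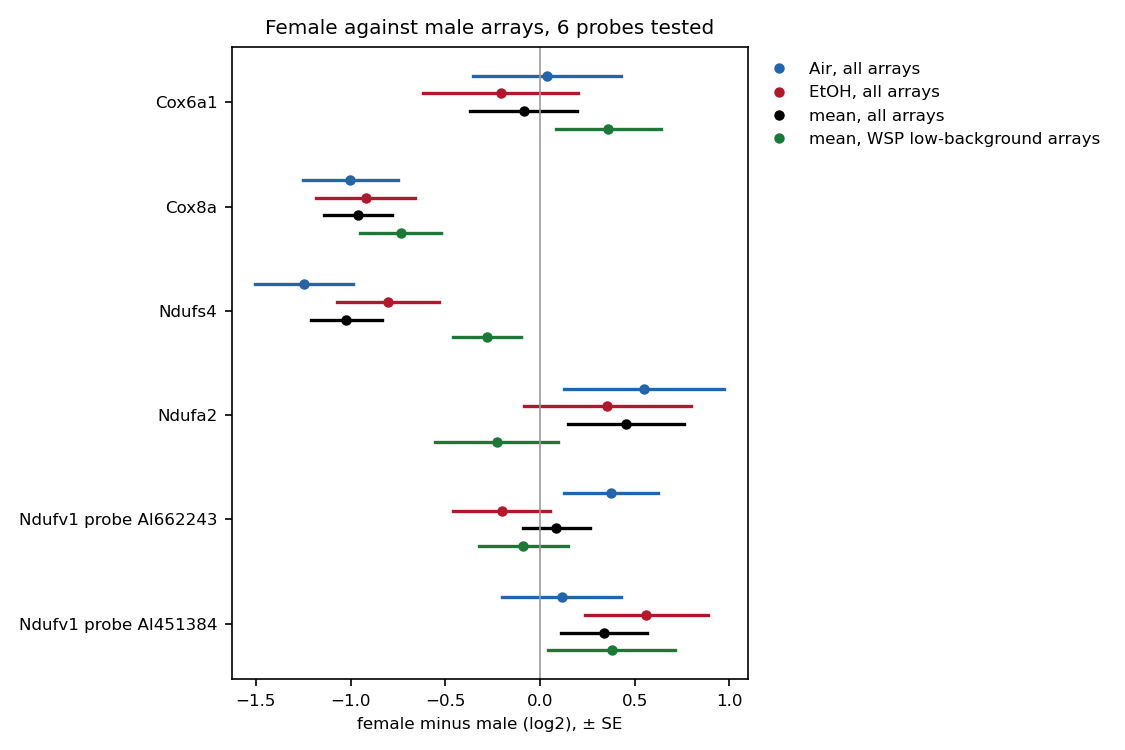
Female minus male difference in log2 (horizontal axis) ± SE for the 6 probes tested, in Air, in EtOH and averaged over line and treatment on all arrays, and averaged over treatment on the low-background WSP arrays alone (4 female, 8 male). Cox8a stays near -0.7 on the low-background arrays (-0.73), while Ndufs4 goes to -0.28 beside -1.02 on all arrays.

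Neither Cox8a nor Ndufs4 passed among arrays with a low background reading, a smaller set with less precision. Only WSP has female arrays of low background, 4 of them (pool 2), which were set against the 8 male WSP arrays. The share of probes above background still differed there, from 66.8% to 82.5% on the female and from 40.9% to 68.3% on the male arrays. There Cox8a differed by -0.73 ± 0.21 log2 (SE, limma adjusted p = 0.06, where 138 of the probes tested passed). Its female values of 5.24 to 5.58 all lay below the male WSP range of 5.60 to 6.57. Ndufs4 differed by -0.28 ± 0.18 (adjusted p = 0.402), with 1 of 4 female arrays below the lowest male WSP array and female values of 5.39 to 6.13 against 5.74 to 6.38 in males. In Air alone, 2 female against 4 male arrays, Cox8a differed by -0.72 ± 0.30 (adjusted p = 0.59) and Ndufs4 by -0.04 ± 0.25 (adjusted p = 0.976). Of all probes tested, 0 passed there. In EtOH alone, at the same numbers, Cox8a differed by -0.75 ± 0.30 (adjusted p = 0.191) and Ndufs4 by -0.52 ± 0.25 (adjusted p = 0.28), where 142 probes passed. With background class as a term in the fit of all arrays, the mean differences were -0.31 ± 0.29 for Cox8a (adjusted p = 0.802) and -0.20 ± 0.27 for Ndufs4 (adjusted p = 0.887). With that term 0 of all probes passed, so failing to pass was not particular to these members. In EtOH arrays that term turned the direction of Ndufs4, to 0.02. Cyclic loess in place of quantile normalisation gave -0.37 ± 0.17 (adjusted p = 0.155) and -0.36 ± 0.15 (adjusted p = 0.112). With it, 72.1% of the 104 probes past the threshold in Air were higher in females, against 22.9% of 582 with quantile normalisation. Background and sex cannot be told apart in WSR, where every female array was high and every male array low.

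The 2 pools of female WSP show the levels at either background within 1 sex and line. Ndufs4 measured 4.39 and 5.78 (EtOH) and 4.07 and 4.56 (Air) on the high-background pool 1 arrays, against 5.39 and 5.74 (EtOH) and 6.13 and 5.92 (Air) on the low-background pool 2 arrays. Cox8a measured 4.62 and 4.07 (EtOH) and 5.12 and 4.61 (Air) on pool 1, against 5.52 and 5.58 (EtOH) and 5.54 and 5.24 (Air) on pool 2. Every pool 1 value of Cox8a lay below every pool 2 value, and for Ndufs4 this held in Air but not for EtOH array 2-1. Pool and background class coincide here, so they cannot be told apart. Across all 31 arrays Cox8a was above background on 3 of 11 high-background and 20 of 20 low-background arrays, and Ndufs4 on 1 of 11 and 20 of 20.

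**Figure D4:**
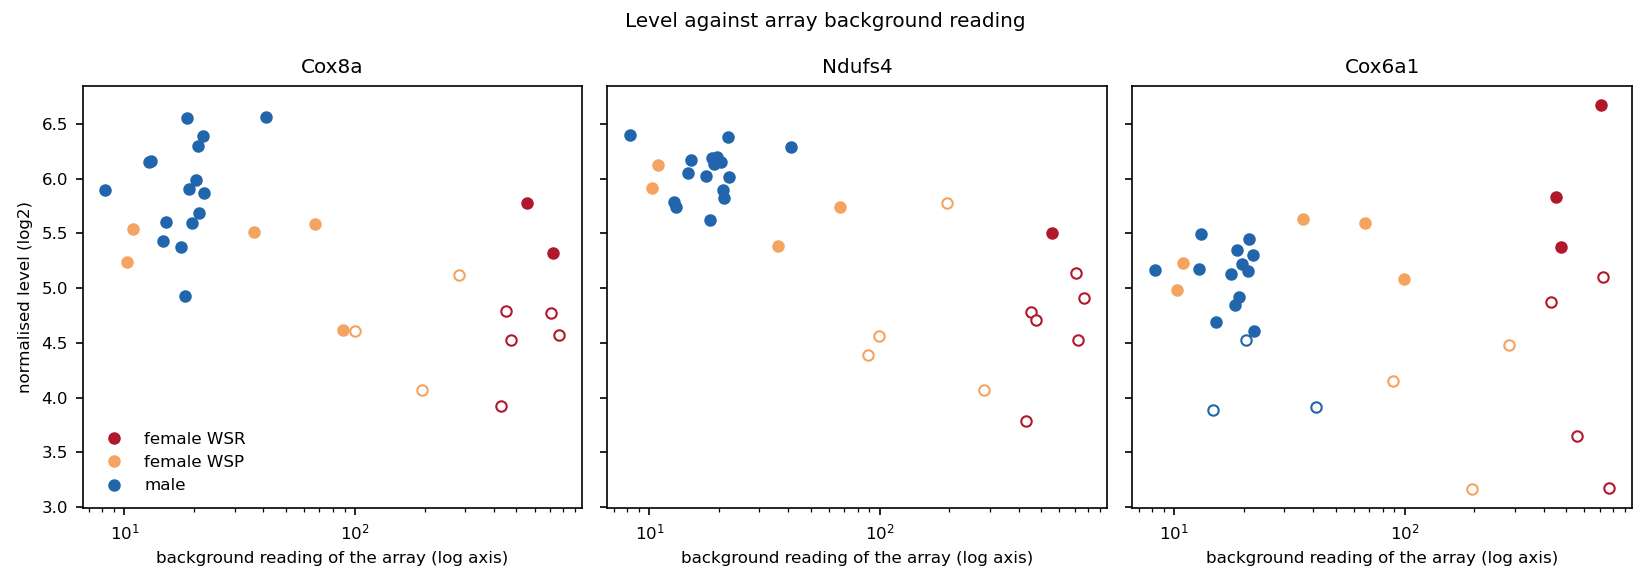
Normalised log2 level (vertical axis) of Cox8a, Ndufs4 and Cox6a1 against the background reading of each array in intensity units (horizontal log axis), for female WSR, female WSP and male arrays, with open points where the probe was not above background. Right of a reading of 75, 8 of 11 points are open for Cox8a and 10 of 11 for Ndufs4, and of the 4 female WSP points left of it 1 lies below the male range for Ndufs4.

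Cell type markers were read against the 25.8% of all probes that passed in the same contrast, 19.2% as lower in females. Of 3 neuronal markers, 2 were lower in females over line and treatment, Thy1 at -0.58 ± 0.20 log2 and synapsin I at -0.59 ± 0.20 (limma adjusted p = 0.0338 and 0.0311), and synaptotagmin 4 differed by -0.43 ± 0.22 and did not pass. Their summed linear level ran from 83.2 to 374 on female arrays (median 128) and from 128 to 242 on male arrays (median 177), and on the 4 low-background female arrays from 143 to 183. Of 4 markers of glia and choroid plexus, 1 was lower in females, glutamine synthetase at -0.85 ± 0.21 (limma adjusted p = 0.00341). The summed level of the 4 ran from 282 to 1197 on female arrays (median 900) and from 805 to 1296 on male arrays (median 961). On the 4 low-background female arrays it ran from 900 to 1197 (median 1074). No marker was listed at 0. Their part in the Cox8a and Ndufs4 differences was not tested.

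None of the 4 EST probes of the chain passed for EtOH, line or sex in the means. The tag highly similar to cytochrome c oxidase polypeptide VIIb, another small complex IV subunit, was above background on all 31 arrays, at 10.85 ± 0.24 on female and 10.58 ± 0.41 on male arrays (SD, n = 15 and 16). It differed by 0.25 ± 0.14 log2 between the sexes (SE, limma adjusted p = 0.189), by -0.10 ± 0.14 between EtOH and Air (adjusted p = 0.911) and by -0.03 ± 0.14 between WSP and WSR (adjusted p = 0.95). The 3 tags similar to subunits of complex III, the ubiquinol-cytochrome c reductase, were above background on 18, 12 and 8 arrays. In female WSR the tag similar to the bovine small subunit, picked after its values were seen, was lower on average with EtOH (means of 4.13 and 5.70). The measured means differed by at least 1.20-fold, and the tag did not pass (adjusted p = 0.263). It measured 4.73, 4.62 and 3.04 on EtOH arrays, against 4.75, 5.79, 4.78 and 7.46 on Air arrays, with no EtOH value above background. The fifth EST probe matches by title a vacuolar ATPase subunit, which is not part of the respiratory chain. It was lower in females over line and treatment, at -0.79 ± 0.22 (adjusted p = 0.0086), and in Air, at -0.90 ± 0.31 (adjusted p = 0.0449), and was above background on 5 of 15 female and 14 of 16 male arrays.

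Other genes of energy metabolism were counted from title lists chosen with earlier results known. Of 22 other mitochondrial probes (21 titles, some of them caught by a shared phrase alone), 13 were tested, and none passed for EtOH or line in the means. Between the sexes 1 rose and 2 fell in females over line and treatment, 3 of 13 where 25.8% of all probes passed, with a median of 0.01 log2 beside -0.03 over all probes. The one that was higher was isocitrate dehydrogenase 1, the cytosolic NADP-dependent enzyme, at 1.03 ± 0.22 (limma adjusted p = 0.00112). The lower ones were Slc25a5, an adenine nucleotide translocator that exchanges ATP for ADP across the inner membrane, at -0.58 ± 0.14 (adjusted p = 0.00265), and the inner membrane translocase subunit of the TIM17 family, at -0.73 ± 0.20 (adjusted p = 0.00624). Slc25a5 was above background on 1 of 15 female and 14 of 16 male arrays. Of 4 glycolysis probes, 0 passed for EtOH or line in the means, and 1 of the 4 was higher in females, phosphofructokinase A, at 0.75 ± 0.24 (adjusted p = 0.0213). Background readings differed with sex in these contrasts as described above, and their part was not tested.

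Cox8a and Ndufs4 correlated at a Pearson r of 0.72 over 31 arrays, which share the sex and background difference, at 0.43 after group means were removed, and at 0.39 over the 16 male arrays. Atp5pb and Ndufs4 came as close on the same last 2 measures (0.45 and 0.40), though Atp5pb was above background on only 4 arrays. Cox6a1 correlated with Cox8a at 0.16 and with Ndufs4 at 0.01 over 31 arrays. The probes most like Cox6a1 among 857 tested probes with non-EST titles were cyclin-dependent kinase 2 (r = 0.86), a nociceptin neuropeptide (0.83) and carboxypeptidase X2 (0.81) over 31 arrays. After group means were removed they were c-src tyrosine kinase (0.91), cyclin-dependent kinase 2 (0.90) and the nociceptin neuropeptide (0.90). These correlations are descriptions over arrays that share groups and background classes.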

How the data were processed

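Total RNA of prefrontal cortex was labelled with 33P and hybridised to cDNA arrays, per the labels. The deposited array files give a linear signal intensity for each of 5355 spots and, per the file headers, 1 background value per array. Software is not given in the sources used here. The authors' deposited values are a straight line in log2 signal on each array. Its slope ran from 1.21 to 2.94 over the arrays, so a unit of that table is not a doubling of signal. The table is empty where a spot was not above background, and centring is unknown. No member had 2 or more values there in each of the 8 groups, so it was fitted on the 16 male arrays only, where 4 members had 2 or more in each group. That fit was added after seeing the data.

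With limma 3.58.1 in R 4.3.3, normexp was applied to each array and 192 control spots were dropped. An offset was added, and log2 and then quantile normalisation followed. The offset was 50 where the median signal was at least 500 and 0.1 of the median otherwise. Probes above the 25th percentile of mean level (3872) were fitted with a mean for each of 8 groups (23 residual degrees of freedom). P-values were Benjamini-Hochberg adjusted within each of 13 contrasts, at 0.05. Pools are biological replicates per the labels, and the number of arrays limits precision. Within a sex and line, or between lines in Air, a difference in which no array of a group was above background was given as a lower bound, and with no size where the bound was under 1-fold. The bound holds for the measured means and takes no account of sampling error. The plot of EtOH differences shows fitted values.

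EtOH and Air arrays of a selection replicate come from the same selected line, and their deviations correlated at 0.03, -0.05, -0.05 and -0.09 in female WSP, female WSR, male WSP and male WSR. Members and lists were chosen with earlier results of these data known. All members were named. Values array by array were given for Cox6a1, members past the threshold and the member of smallest p otherwise. The script was tested on simulated data. In the file header of female WSP EtOH 1-2 the name ends in pool 1, and the deposited record was followed.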

Additional observations from a re-analysis of the deposited data

Results flagged for a closer look

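Within groups of 4 arrays, 3 values of the Ndufv1 probe AI451384 stood far from the others of their group, of 49 groups and probes looked at, where chance marks about 1 in 20. In male WSR EtOH, array 1-1 measured 4.94 (above background), while the other 3 ran from 3.96 to 4.04. In male WSP Air, array 2-1 measured 3.35 (not above background), while the others ran from 4.35 to 4.50. In male WSR Air, array 2-1 measured 3.12 (not above background), while the others ran from 4.56 to 4.76. All 3 arrays had low background readings.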

How the results depend on the processing

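The 31 fits that left out 1 array each and 15 other settings were compared with the results above. The authors' deposited table, on male arrays alone, gave 0 of 4 members past the threshold for EtOH in male WSP, in male WSR and for line in male Air (limma, with 0, 0 and 1 at an unadjusted p under 0.05, the 1 being Cox8a). For EtOH in female WSP, male WSP and male WSR, for the mean and for both differences of responses, 0 members passed in each setting run. In female WSR the count ranged from 0 to 1 over the fits without 1 array, and the 1 was Cox6a1 without EtOH array 1-1. That fit had 122 probes past the threshold in all, instead of 9. The line counts were 0 in each fit without 1 array, and 1 with array weights in female Air (Ndufs4) and in the mean (Cox8a). With those weights 429 and 383 probes passed in all, instead of 128 and 46. The sex count of 2 in Air and in the mean held in each fit without 1 array (2 to 2). It was 0 with cyclic loess, with background class as a term, with the log2 background reading as a covariate, and with low-background arrays only. The count of 1 in EtOH arrays held when the fit used the EtOH arrays alone, but was then Ndufs4 (adjusted p = 0.045). The covariate gave mean differences of -0.52 for Cox8a and -0.06 for Ndufs4, and 0.27 for Ndufs4 in EtOH arrays. In EtOH arrays the sex count of 1 was 0 in those 4 settings and with array weights. It was 2 with median scaling, with no background correction, with a dim filter at the 50th percentile, with the excluded array and with selection replicate and pool as replicate block, and it ranged from 0 to 2 over the fits without 1 array. Cox8a in EtOH arrays ran from -1.11 to -0.78 over those fits and did not pass without female WSP EtOH 2-1, female WSR EtOH 1-2, male WSR EtOH 2-1 or male WSR EtOH 2-2 (adjusted p up to 0.0742). Arrays of the same selection replicate and pool correlated from -0.17 to 0.24 between treatments, and at 0.02 to 0.24 in female WSP, where pool 1 and pool 2 also differ in background class. The block by selection replicate alone changed no count. Over all probes, the sex calls numbered 998 as reported, 462 with cyclic loess, 1335 with median scaling (median shift -0.16 log2), 0 with a background term and 138 on low-background arrays. The share of these calls that were higher in females was 54.8% with cyclic loess and 42.0% on low-background arrays, against 25.5% as reported. Members near background have limited precision, and the cause of these shifts was not tested.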

Other observations

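The array the submitters excluded, female WSR EtOH 2-1, was above background for none of the 7 member probes. Normalised with the others, 5 of the 7 lay inside the range of the female WSR Air arrays and 2 below it. Its Cox6a1 level was 4.75, where female WSR Air arrays ran from 4.96 to 5.91, and its Ndufv1 level by probe AI662243 was 3.31, where they ran from 4.44 to 6.02.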
